A study of Rattus norvegicus with 24 samples.

Results

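The strain difference that SHR carried across 3 unlike tissues was described from all 24 libraries of the series, as the mean of the SHR minus WKY differences within heart (left ventricle), adrenal gland and superior cervical ganglion. Genes entered when they reached 1 FPKM (fragments scaled to the length of the transcript and to the size of the library) in 4 or more of the 8 libraries of every tissue, which 10902 of the 20506 genes with values did. The rats were 24 weeks old. The 6 groups were spontaneously hypertensive rats (SHR) and Wistar-Kyoto rats (WKY), each with 4 left ventricle, 4 adrenal gland and 4 superior cervical ganglion libraries; no treatment or engineered allele is given for any group. Total RNA was sequenced from whole tissue, so fewer cells of a type and less RNA per cell cannot be told apart. The labels do not say which libraries came from which rat, so the spread behind each p-value is that among these libraries and could be technical.

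SHR is an inbred strain selected for high blood pressure from Wistar-Kyoto stock, and WKY is the inbred strain kept as its normotensive control. The strains differ at many places in the genome as well as in blood pressure. The left ventricle pumps against arterial pressure, the adrenal gland makes steroid hormones in its cortex and catecholamines in its medulla, and the superior cervical ganglion holds sympathetic neurons that supply the head and neck.

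The tissue labels matched their markers. Myh6, the cardiac myosin heavy chain, had a median of 2908 FPKM in the left ventricle and 0.98 and 3.11 FPKM in the adrenal gland and ganglion. Star, which carries cholesterol into mitochondria for steroid synthesis, had a median of 6653 FPKM in the adrenal gland. Prph, a neuronal intermediate filament protein, had a median of 2054 FPKM in the ganglion. The summed FPKM per library ran from 455530 to 549167, and between 12104 and 12999 genes reached 1 FPKM. The files give no read counts, so the depth is unknown and no counting interval can be given. One pair of libraries stood apart on interferon-response genes: SHR number 2 of the left ventricle and of the adrenal gland, whose values are given beside the results they touch.

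Averaged over the tissues, 1786 genes were higher and 2322 lower in SHR at an adjusted p under 0.05 (limma, Benjamini-Hochberg over all genes tested), which is 37.7% of the genes tested (16.4% higher and 21.3% lower). The typical change was small. The median absolute averaged difference of the called genes was 0.21 on the log2(FPKM + 1) scale, and 92 genes reached a 2-fold difference on that scale. A call on the average did not mean a difference in every tissue: 1681 of the calls (40.9%) had a difference of the other sign in at least 1 tissue, and 1830 were called within the adrenal gland and within neither other tissue. Within single tissues, 2180 genes were called higher and 2957 lower in the adrenal gland, 1238 higher and 1731 lower in the left ventricle, and 364 higher and 229 lower in the ganglion. The strain difference varied among tissues (an F test of the strain-by-tissue interaction, adjusted p under 0.05) in 4583 genes, 42% of those tested.

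The strain signature seen in every tissue was taken as the called genes whose 4 SHR libraries all lay above, or all below, the 4 WKY libraries in each of the 3 tissues. It held 214 genes, 102 higher and 112 lower in SHR, which is 1.96% of the genes tested (0.936% higher and 1.03% lower) and 5.21% of the calls. Their median absolute averaged difference was 0.55, the smallest was 0.15, and 46 reached 2-fold, 23 in each direction. Of the 214, 131 were also called within all 3 tissues; over all genes tested, 157 were called in 1 direction within all 3 (1.44%). In the authors' deposited table, 155 of the 214 had q-values under 0.05 in the same direction in all 3 tissues. Sharing a direction did not mean sharing a size, since 110 of the 214 had an interaction call and 104 did not. The 3 differences of a gene spanned at most 0.5 in 132 genes and 1 or more in 33. The difference was largest in the adrenal gland for 119 genes, in the left ventricle for 67 and in the ganglion for 28. For 23 of the 214 the filter was passed in at least 1 tissue through 1 strain only; without all such genes, 191 of 10802 genes (1.77%) had the shared pattern. For 7 of the 23 this held in all 3 tissues, through SHR for Setd4, LOC102556347, Cbr3, Ifit1, LOC100360940 and RGD1564400 and through WKY for Hist1h2bk. Of the others named below, Ndufa10l1, LOC100365043 and Igsf7 passed in this way in 2 tissues. Ephx2, Map3k5, Bdkrb2, Ifi44l, RT1-Db2, RGD1562652, Col4a3 and RGD1559482 did so in 1 tissue. A gene that passed in this way had to differ between the strains without overlap in that tissue, and its p-value is given only as a description.

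**Figure D1:**
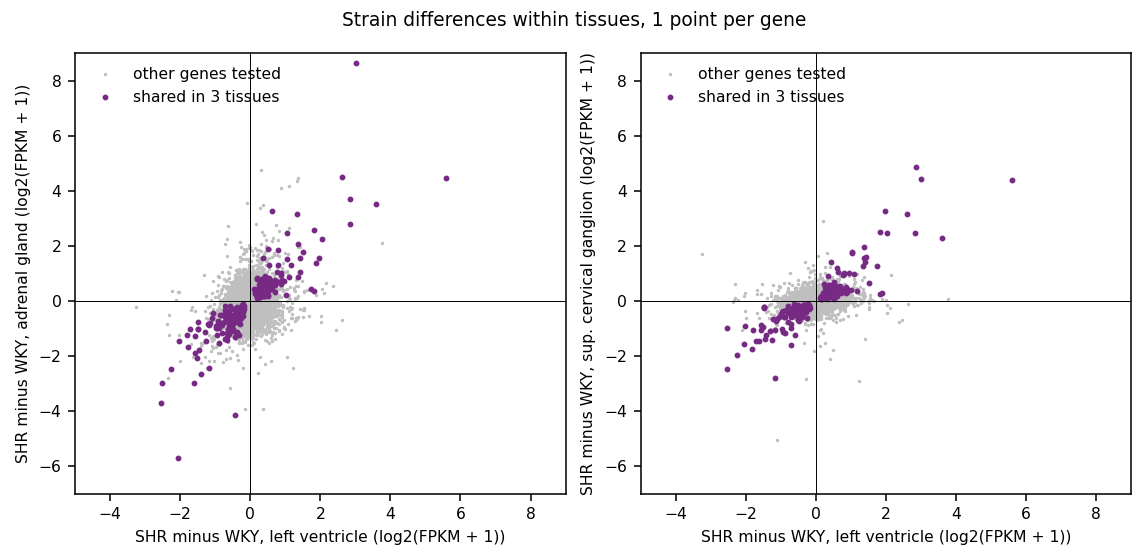
Each point is 1 of the 10902 genes, with its SHR minus WKY difference in the left ventricle on the horizontal axis and in the adrenal gland (left) or the superior cervical ganglion (right) on the vertical axis, in log2(FPKM + 1). The 214 genes shared by the tissues, in purple, lie in the lower left and upper right corners, while many other genes in grey lie near an axis or in the remaining corners.

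**Figure D2:**
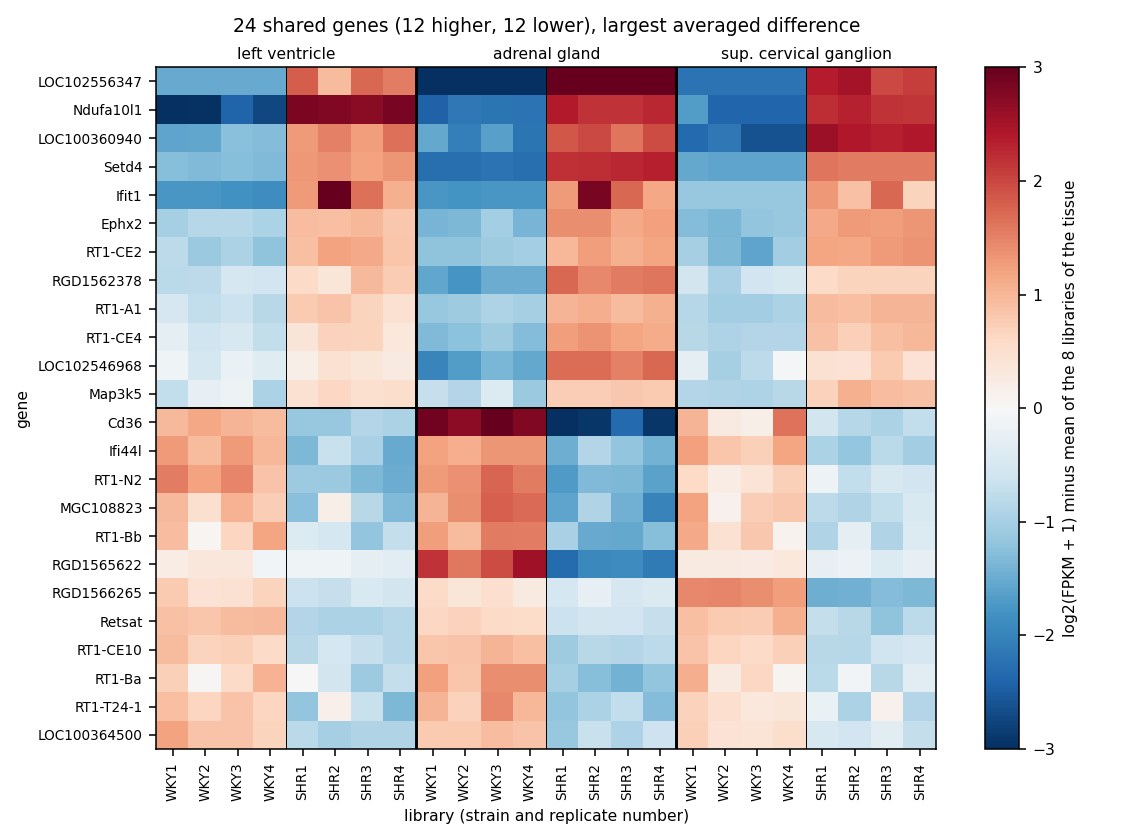
Colour gives log2(FPKM + 1) minus the mean of the 8 libraries of the same tissue, for 12 higher and 12 lower shared genes with a mean of at least 5 FPKM over the 24 libraries; columns are libraries by tissue and strain. Colours end at 3 and -3, and values beyond these take the end colour, as for LOC102556347 and Cd36 in the adrenal gland.

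Setd4, LOC102556347 and Cbr3, 3 adjacent tested genes on chromosome 11, were higher in SHR in every tissue, and each passed the filter through SHR only. Setd4 encodes a SET-domain protein methyltransferase. Cbr3 encodes a carbonyl reductase, an enzyme that reduces carbonyl groups of drugs and lipids, and LOC102556347 is named Cbr1l2, a carbonyl reductase 1-like gene, in RefSeq. The promoters of the 3 genes (RefSeq, GRCr8, the BN reference strain, 250 bases before to 50 bases after the annotated start) are shown because the genes moved together. They lie at chr11:46343975-46344274, minus strand for Setd4, at chr11:46378224-46378523, plus strand for Cbr1l2 and at chr11:46478045-46478344, plus strand for Cbr3. Capitals mark a match to TGACNNNGC, the core of the antioxidant response element bound by NRF2, searched on both strands.
Setd4: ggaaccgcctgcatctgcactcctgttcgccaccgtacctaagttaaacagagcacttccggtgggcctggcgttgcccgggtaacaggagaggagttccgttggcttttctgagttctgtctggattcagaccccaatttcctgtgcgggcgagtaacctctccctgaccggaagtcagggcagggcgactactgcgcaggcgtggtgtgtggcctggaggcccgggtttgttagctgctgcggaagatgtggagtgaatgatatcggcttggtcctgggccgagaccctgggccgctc
Cbr1l2: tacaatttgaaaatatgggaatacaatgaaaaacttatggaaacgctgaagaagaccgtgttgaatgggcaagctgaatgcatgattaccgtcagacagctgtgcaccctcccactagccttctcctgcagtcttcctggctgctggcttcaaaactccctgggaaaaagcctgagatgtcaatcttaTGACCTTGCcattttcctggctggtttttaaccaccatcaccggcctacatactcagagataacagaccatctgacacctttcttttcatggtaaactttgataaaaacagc
Cbr3: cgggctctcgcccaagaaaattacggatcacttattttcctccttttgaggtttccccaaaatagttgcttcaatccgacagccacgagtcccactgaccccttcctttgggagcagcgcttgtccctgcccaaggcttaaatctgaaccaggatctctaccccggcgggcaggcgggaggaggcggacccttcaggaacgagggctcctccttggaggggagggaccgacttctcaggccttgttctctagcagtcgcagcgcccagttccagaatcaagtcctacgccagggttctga
The Cbr1l2 window held 1 match, and the Setd4 and Cbr3 windows held none. The same letters occurred in 12.2% of 27457 promoters of this length, in 14.7% of the 8739 of tested genes, in 16 of 78 for the shared genes higher in SHR (20.5%) and in 6 of 93 for those lower (6.45%). A match is a description of the reference letters and not a binding site.

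Setd4 in the left ventricle was listed at 5.17, 5.52, 4.83 and 5.35 FPKM in the SHR libraries and at 0.04, 0, 0.04 and 0 FPKM in the WKY libraries. Setd4 in the adrenal gland stood at 21.0, 21.1, 22.0 and 23.1 FPKM in the SHR libraries and at 0, 0, 0.04 and 0 FPKM in the WKY libraries. Setd4 in the ganglion measured 9.25, 9.04, 8.95 and 8.98 FPKM in the SHR libraries and 0.16, 0.13, 0.13 and 0.13 FPKM in the WKY libraries. Every SHR library lay far above every WKY library, and WKY transcripts were close to or at 0. The averaged difference of Setd4 was 3.42 (SE 0.03, adjusted p = 1.27e-27), with 2.61 in the ventricle, 4.50 in the adrenal gland and 3.14 in the ganglion. With WKY this low the size rests on the value added before the log: the averaged difference of Setd4 was 6.14 with 0.1 added and 1.63 with 5 added. LOC102556347 in the adrenal gland was listed at 399.7, 367, 401 and 424 FPKM in the SHR libraries and at 0 in all 4 WKY libraries. LOC102556347 in the left ventricle stood at 9.02, 4.45, 8.43 and 7.24 FPKM in the SHR libraries and at 0 in all 4 WKY libraries. LOC102556347 in the ganglion measured 22.8, 25.4, 17.4 and 18.7 FPKM in the SHR libraries and 0 in all 4 WKY libraries. LOC102556347 was listed at 0 in all 12 WKY libraries, so no fold is given (adjusted p = 2.57e-24), and its SHR level was highest in the adrenal gland. Cbr3 reached 3.14, 2.42, 3.09 and 3.06 FPKM in SHR left ventricle and 1.56, 1.19, 3.08 and 2.17 FPKM in SHR adrenal gland, and was listed at 0 in the 8 WKY libraries of those tissues. Cbr3 in the ganglion was listed at 8.08, 8.29, 9.89 and 10.3 FPKM in the SHR libraries and at 0.05, 0, 0.09 and 0.1 FPKM in the WKY libraries. The groups did not overlap in any tissue (adjusted p = 6.19e-17), and for Cbr3 the ganglion held the highest level. Cbr1, the carbonyl reductase 1 gene, did not pass the filter and was not tested; it was looked up after these values were seen. Cbr1 in the adrenal gland was listed at 749.7, 614, 839 and 836 FPKM in the SHR libraries and at 0 in all 4 WKY libraries. Cbr1 too was listed at 0 in all 12 WKY libraries, and in SHR left ventricle and ganglion it ran from 0 to 4.18 and from 0 to 13.0 FPKM. The carbonyl reductase genes are close copies, and the authors' counting may have split fragments among them.

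In 3 pairs, a gene and its numbered near copy went opposite ways in SHR in every tissue; they were picked after the values were seen. Pairs were matched by name alone, which also joined genes that are not near copies, such as Fh and Fhl1. Of 191 pairs matched in this way, 39 had both members called and 4 had both members in the shared signature. The 191 is therefore not a count of near copies. Of all single genes tested, 37.7% were called and 1.96% were shared. In the first pair, Ndufa10, a subunit of respiratory complex I, was lower, and Ndufa10l1 was higher. Ndufa10l1 in the left ventricle was listed at 86.5, 83.7, 79.5 and 88.4 FPKM in the SHR libraries and at 0.45, 0.57, 1.35 and 0.87 FPKM in the WKY libraries. Ndufa10 in the left ventricle was listed at 211, 213, 214 and 207 FPKM in the SHR libraries and at 249.8, 294, 275 and 302 FPKM in the WKY libraries. Ndufa10l1 was nearly silent in WKY and made up a visible part of the SHR total. Its averaged difference was 4.83 (SE 0.08, adjusted p = 7.66e-23), and that of Ndufa10 was -0.54 (SE 0.03, adjusted p = 2.1e-11). Summed, the pair ran from 293.9 to 297.2 FPKM in SHR left ventricle against 250.3 to 302.9 FPKM in WKY, and from 73.9 to 85.9 against 81.9 to 85.5 FPKM in the ganglion, overlapping in both. In the adrenal gland the sum was lower in SHR, at 99.6 to 107.5 FPKM against 109.8 to 119.1 FPKM in WKY, with no overlap.

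Diablo, a mitochondrial protein that counters inhibitors of apoptosis when released, and LOC100360940, named Diablol1 in RefSeq, made the second pair. LOC100360940 in the ganglion was listed at 38.9, 34.2, 32.7 and 34.7 FPKM in the SHR libraries and at 0.34, 0.51, 0.09 and 0.09 FPKM in the WKY libraries. Diablo in the ganglion was listed at 105, 93.5, 91.3 and 93.3 FPKM in the SHR libraries and at 116, 127, 136 and 124 FPKM in the WKY libraries. The copy was high in all SHR libraries and near 0 in all WKY libraries, while Diablo itself was lower in SHR without overlap. LOC100360940 had an averaged difference of 3.80 (SE 0.08, adjusted p = 1.17e-20) and Diablo one of -0.45 (SE 0.03, adjusted p = 5.61e-10). Their sum overlapped between strains in the left ventricle (33.0 to 33.9 FPKM in SHR, 30.2 to 35.8 in WKY) and in the ganglion (124.0 to 144.2 and 116.7 to 136.3). It was lower in SHR in the adrenal gland (57.4 to 67.7 and 71.9 to 76.0). The third pair, Hist1h2bk, a histone H2B gene, and LOC100365043, named H2bc12l1 in RefSeq, did not balance. Hist1h2bk in the adrenal gland was listed at 0 in all 4 SHR libraries and at 9.49, 13.9, 13.8 and 10.8 FPKM in the WKY libraries. LOC100365043 in the adrenal gland was listed at 4.11, 2.50, 4.47 and 4.51 FPKM in the SHR libraries and at 0.53, 0.93, 1.38 and 0 FPKM in the WKY libraries. Hist1h2bk was listed at 0 in the 8 SHR libraries of the left ventricle and adrenal gland (adjusted p = 8.93e-18, no fold given). LOC100365043 had an averaged difference of 1.46 (SE 0.13, adjusted p = 2.5e-08), and the sum of the pair was lower in SHR in all 3 tissues without overlap. For near copies the values rest on how the authors' counting divided shared fragments, and the single-gene values are uncertain. The fourth pair, LOC691254 and RGD1565622, named Rex2 and Rex2l2 in RefSeq, was lower in both members, with averaged differences of -0.75 (SE 0.08, adjusted p = 2.34e-07) and -1.70 (SE 0.08, adjusted p = 1.04e-13). RGD1565622 was unevenly lower, with -0.43 in the ventricle, -4.12 in the adrenal gland and -0.54 in the ganglion.

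**Figure D3:**
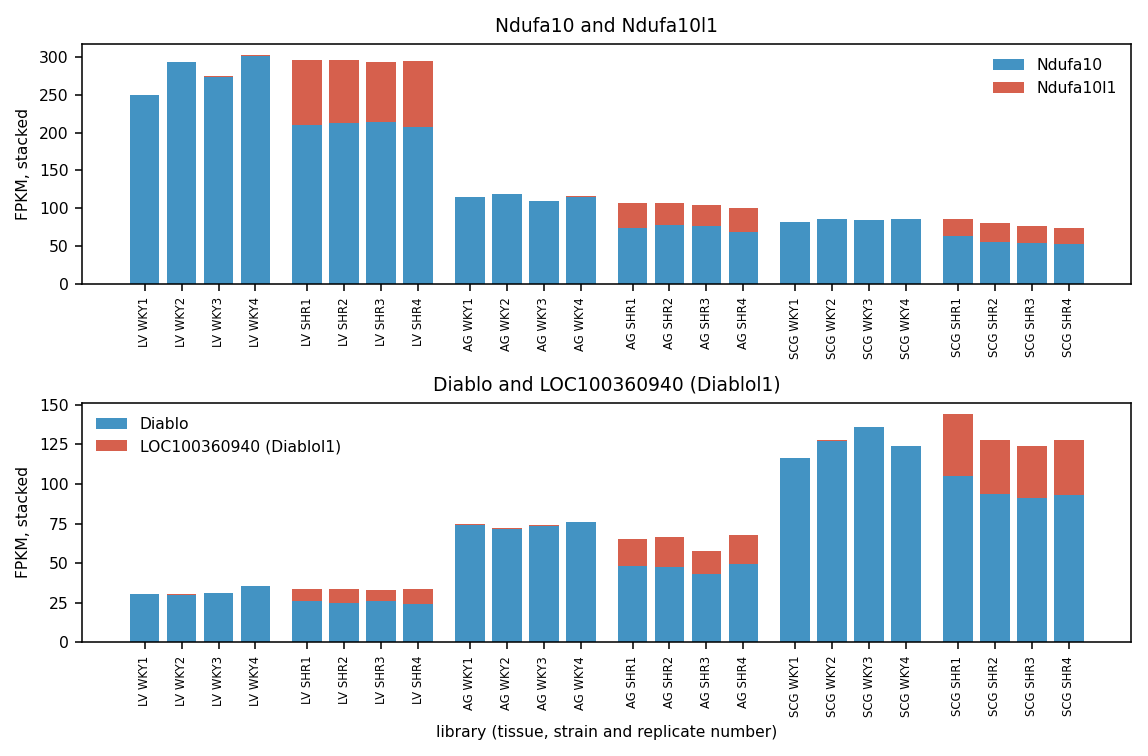
Stacked FPKM of Ndufa10 with Ndufa10l1 (top) and of Diablo with LOC100360940, named Diablol1 in RefSeq (bottom), 1 bar per library of the left ventricle (LV), adrenal gland (AG) and superior cervical ganglion (SCG). The copy, in red, is visible in SHR bars and close to 0 in WKY bars, and the summed bars overlap between strains in LV and SCG and are lower in SHR in AG.

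The RT1 genes, the major histocompatibility complex of the rat on chromosome 20, made up 14 of the 214 shared genes. Class I molecules present peptides from inside the cell to CD8 T cells, and class II molecules present peptides taken up from outside to CD4 T cells. Of 25 RT1 genes tested, 5 were called higher and 19 lower, and the shared ones, 56% of those tested, were 5 higher and 9 lower. Chromosome 20 held 25 shared genes among 326 tested (7.67%), against 3.2% on the next chromosome, 18. Among class I genes, RT1-A1, RT1-CE2 and RT1-CE4 were higher, and RT1-CE10, RT1-CE5 and RT1-CE13 were lower. RT1-A1 in the left ventricle was listed at 458, 479, 421 and 364 FPKM in the SHR libraries and at 186, 159.6, 169 and 148 FPKM in the WKY libraries. RT1-A1 in the adrenal gland stood at 1316, 1398, 1258 and 1362 FPKM in the SHR libraries and at 295, 309.7, 344 and 327 FPKM in the WKY libraries. RT1-A1 in the ganglion measured 224, 215, 235 and 232 FPKM in the SHR libraries and 63.1, 55.6, 55.0 and 58.5 FPKM in the WKY libraries. RT1-A1 was higher in every SHR library of each tissue, with an averaged difference of 1.79 (SE 0.04, adjusted p = 1.58e-19). RT1-CE2 and RT1-CE4 had averaged differences of 2.26 (SE 0.06, adjusted p = 6.59e-18) and 1.75 (SE 0.05, adjusted p = 1.42e-17). RT1-CE10 in the left ventricle was listed at 36.4, 45.7, 40.5 and 36.1 FPKM in the SHR libraries and at 129, 106, 109.6 and 98.6 FPKM in the WKY libraries. RT1-CE10 in the adrenal gland stood at 56.3, 66.0, 63.9 and 68.7 FPKM in the SHR libraries and at 211, 215, 240.4 and 223 FPKM in the WKY libraries. RT1-CE10 in the ganglion measured 12.9, 12.8, 15.3 and 16.4 FPKM in the SHR libraries and 44.0, 37.5, 35.8 and 39.9 FPKM in the WKY libraries. RT1-CE10 lay lower in every SHR library, with an averaged difference of -1.55 (SE 0.05, adjusted p = 2.02e-16), made of -1.46 in the ventricle, -1.79 in the adrenal gland and -1.40 in the ganglion. RT1-CE5 was lower, with an averaged difference of -0.79 (SE 0.06, adjusted p = 4.65e-10). RT1-CE13, with one of -0.51 (SE 0.07, adjusted p = 3.03e-06), had nearly equal differences in the tissues, -0.51 in the ventricle, -0.52 in the adrenal gland and -0.51 in the ganglion, and no interaction call; its left ventricle library of SHR number 2, at 41.7 FPKM, lay just under the lowest WKY library, at 41.9 FPKM.

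Summed over the 9 tested genes of the RT1-A and RT1-CE names, class I FPKM differed by tissue. The sum was 1023 ± 106 FPKM (SD, n = 4) in SHR left ventricle and 1029 ± 115 in WKY, with overlapping libraries. It was higher in SHR without overlap in the adrenal gland, at 2710 ± 118 FPKM against 1788 ± 134, and in the ganglion, at 481 ± 28.8 against 323 ± 28.0. Members of this family are near-identical and differ between strains, so how much of each difference lies in the alignment to 1 reference genome was not tested. Of the non-classical class I genes, RT1-N2 was lower, with an averaged difference of -2.16 (SE 0.09, adjusted p = 7.06e-15) and 3.33 to 4.71 FPKM in SHR against 21.1 to 34.1 FPKM in WKY in the left ventricle. RT1-S2, next to it, was higher, with one of 1.32 (SE 0.15, adjusted p = 6.49e-07), and RT1-T24-1 was lower, with one of -1.51 (SE 0.15, adjusted p = 1.76e-07). RGD1562652, named H2-Q7-ps1 in RefSeq and adjacent to RT1-N2, was lower, with an averaged difference of -1.24 (SE 0.06, adjusted p = 2.46e-13).

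The class II genes RT1-Ba and RT1-Bb, which encode the alpha and beta chains of 1 molecule and are neighbours, were lower together. RT1-Bb in the adrenal gland was listed at 10.2, 6.71, 6.48 and 7.98 FPKM in the SHR libraries and at 50.7, 41.2, 63.0 and 62.7 FPKM in the WKY libraries. RT1-Bb in the left ventricle stood at 11.3, 10.3, 6.13 and 8.98 FPKM in the SHR libraries and at 30.1, 16.0, 24.7 and 36.0 FPKM in the WKY libraries. RT1-Bb in the ganglion measured 11.5, 18.5, 11.5 and 16.7 FPKM in the SHR libraries and 50.4, 31.1, 40.3 and 24.4 FPKM in the WKY libraries. RT1-Bb did not overlap between strains in any tissue, and the gap was widest in the adrenal gland. Its averaged difference was -1.77 (SE 0.14, adjusted p = 9.01e-09), and that of RT1-Ba was -1.55 (SE 0.15, adjusted p = 7.91e-08), with -1.17 in the ventricle, -2.43 in the adrenal gland and -1.03 in the ganglion. RT1-Db2 was the class II gene that went the other way, at 3.32 to 4.93 FPKM in SHR against 0.46 to 1.21 FPKM in WKY in the ganglion (averaged difference 1.27, SE 0.10, adjusted p = 2.77e-09). Of 17 tested leukocyte markers, 1 was called higher and 5 lower on the average (35.3% called, against 37.7% of all tested genes). An interaction call was found for 15 of them, so their differences varied among tissues. Their mean log2(FPKM + 1) was 4.17 to 4.76 in SHR left ventricle against 3.74 to 4.27 in WKY. It was 3.24 to 3.67 against 3.91 to 4.31 in the adrenal gland, and 3.20 to 3.45 against 3.21 to 3.80 in the ganglion. In the left ventricle RT1-Bb was thus lower while the leukocyte list ran higher with some overlap, and in the adrenal gland both ran lower. Over the whole list for antigen presentation, 6 of 30 tested genes were called higher and 22 lower, with a median difference of -0.64 against -0.01 over all genes tested. The mean of this list in SHR number 2 was 5.10 in the left ventricle, where its SHR companions had 4.66 to 4.76, and 5.13 in the adrenal gland, where they had 4.92 to 4.99.

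Cd36, the fatty acid translocase that brings long-chain fatty acids into heart and fat cells and is known to be defective in SHR of some colonies, had an averaged drop among the largest of the shared genes; Hist1h2bk, listed at 0 in SHR, cannot be ranked against it. Cd36 in the left ventricle was listed at 207, 208, 248 and 237 FPKM in the SHR libraries and at 903, 1027, 931 and 891 FPKM in the WKY libraries. Cd36 in the adrenal gland stood at 3.03, 3.80, 6.23 and 3.80 FPKM in the SHR libraries and at 271, 232, 292 and 251 FPKM in the WKY libraries. Cd36 in the ganglion measured 2.21, 1.62, 1.46 and 1.83 FPKM in the SHR libraries and 8.55, 4.69, 4.35 and 13.7 FPKM in the WKY libraries. No SHR library reached a WKY library of the same tissue. The averaged difference was -3.10 (SE 0.13, adjusted p = 1.94e-13), made of -2.06 in the ventricle, -5.68 in the adrenal gland and -1.55 in the ganglion, and these differed among tissues (interaction adjusted p = 1.07e-08). It was the only shared member of the list for fatty acid uptake and oxidation, of which 7 of 36 tested genes were called higher and 7 lower. Shared genes of fatty acid metabolism outside the list, chosen after their values were seen, were Acaa1, a peroxisomal thiolase (averaged difference -0.71, SE 0.05, adjusted p = 2.1e-10), Crot, the carnitine octanoyltransferase (-0.65, SE 0.04, adjusted p = 2.49e-11), and Acsf2, an acyl-CoA synthetase (0.61, SE 0.05, adjusted p = 9.28e-09).

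Retsat, the retinol saturase, was lower in every tissue. Retsat in the adrenal gland was listed at 290.1, 309, 303 and 282 FPKM in the SHR libraries and at 699, 732, 679.6 and 663 FPKM in the WKY libraries. Retsat in the left ventricle stood at 51.7, 49.6, 49.2 and 52.4 FPKM in the SHR libraries and at 177, 173, 186 and 189.7 FPKM in the WKY libraries. Retsat in the ganglion measured 20.5, 18.9, 14.3 and 19.5 FPKM in the SHR libraries and 65.1, 59.5, 58.5 and 72.2 FPKM in the WKY libraries. The strains were clearly apart in all 3, with an averaged difference of -1.60 (SE 0.05, adjusted p = 4.16e-18), made of -1.82 in the ventricle, -1.22 in the adrenal gland and -1.75 in the ganglion. Endog, a mitochondrial endonuclease studied in SHR as a gene of cardiac mass, measured 12.1, 14.5, 10.4 and 13.1 FPKM in SHR left ventricle and 56.0, 56.3, 49.3 and 53.0 FPKM in WKY. The difference for Endog was -2.02 in the ventricle, -1.46 in the adrenal gland and -0.92 in the ganglion, and the averaged difference was -1.47 (SE 0.08, adjusted p = 5.15e-13). It was largest in the heart and did not overlap in any tissue.

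Ephx2, the soluble epoxide hydrolase that breaks down vasoactive epoxides of arachidonic acid, was higher. Ephx2 in the left ventricle was listed at 37.3, 37.0, 39.4 and 34.5 FPKM in the SHR libraries and at 9.13, 10.2, 10.1 and 9.44 FPKM in the WKY libraries. Ephx2 in the adrenal gland stood at 8.36, 8.29, 6.84 and 7.27 FPKM in the SHR libraries and at 0.35, 0.39, 0.75 and 0.35 FPKM in the WKY libraries. Ephx2 in the ganglion measured 9.28, 10.4, 10.1 and 10.7 FPKM in the SHR libraries and 0.91, 0.8, 1.06 and 1.12 FPKM in the WKY libraries. All SHR libraries exceeded all WKY libraries, which in the adrenal gland was fixed by the filter, with an averaged difference of 2.30 (SE 0.05, adjusted p = 1.17e-20). Ephx1, the microsomal epoxide hydrolase, went the same way to a lesser degree, at 56.4 to 64.2 FPKM in SHR against 30.9 to 38.1 FPKM in WKY in the adrenal gland (averaged difference 0.64, SE 0.05, adjusted p = 3.84e-09). Gstm1, a glutathione S-transferase, ran at 65.6 to 76.6 FPKM in SHR against 40.8 to 50.1 FPKM in WKY in the ganglion, and its averaged difference was 0.39 (SE 0.05, adjusted p = 1.09e-06). In the adrenal gland the Gstm1 gap between strains was narrow, at 108 to 113 FPKM in SHR against 89.2 to 108 FPKM in WKY. Together with Cbr3 these were the 4 shared genes of the antioxidant and xenobiotic defence list, all higher, while over its 52 tested members 15 were called higher and 17 lower. Map3k5, the stress-activated kinase ASK1, was higher next to its neighbour Pex7, an import receptor of peroxisomes. Map3k5 in the left ventricle was listed at 13.1, 14.9, 13.4 and 13.7 FPKM in the SHR libraries and at 5.13, 7.64, 8.30 and 4.35 FPKM in the WKY libraries. Map3k5 in the ganglion was listed at 3.21, 4.49, 3.93 and 3.81 FPKM in the SHR libraries and at 0.42, 0.39, 0.38 and 0.47 FPKM in the WKY libraries. The Map3k5 groups stayed apart, which in the ganglion was fixed by the filter, and the averaged difference was 1.45 (SE 0.08, adjusted p = 2.94e-12).

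**Figure D4:**
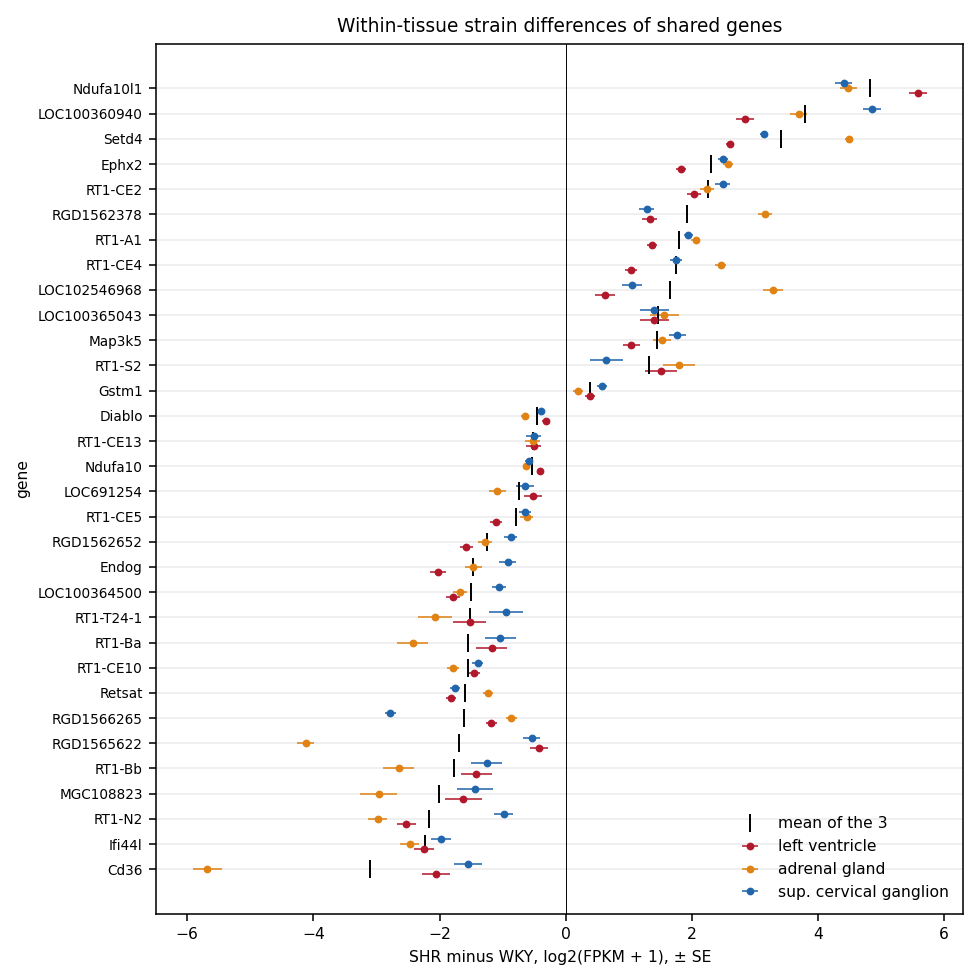
Points give the SHR minus WKY difference of shared genes in log2(FPKM + 1) within the left ventricle (red), adrenal gland (orange) and superior cervical ganglion (blue), with bars of 1 SE, and black ticks give the mean of the 3. RT1-CE13 has 3 points that nearly coincide, while the adrenal point of Cd36 lies at -5.68, far from -2.06 and -1.55 in the other tissues; genes listed at 0 in every library of a strain and tissue are left out.

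Of 20 tested genes with a record in earlier SHR genetics, 3 were called higher (Ephx2, Gstm1 and Gja1) and 9 lower, and 5 were shared by the tissues: Cd36, Endog, Retsat, Ephx2 and Gstm1. The Gja1 call (a gap junction protein; averaged difference 0.25, SE 0.10, adjusted p = 0.0483) was lost when any of 16 of the 24 libraries was left out. This list was put together from genes already known for SHR, so its direction is not independent evidence. The other 6 lower calls were not shared by all tissues. Hsd11b1, which regenerates active glucocorticoid, fell by 2.42 in the adrenal gland, at 11.1 ± 1.83 FPKM in SHR against 64.0 ± 11.0 FPKM in WKY (SD, n = 4), but differed by -0.20 and -0.05 in the ventricle and ganglion. Agtr1a, an angiotensin II receptor, was lower in the adrenal gland (difference -1.13) and higher in the ganglion (0.60), and its averaged difference was -0.25. Rarres2 and Tmem70 had differences of -0.99 and -0.47 in the adrenal gland and differed by less than 0.1 elsewhere. Ncf1, an NADPH oxidase subunit, had an averaged difference of -0.36 (SE 0.05, adjusted p = 1.33e-05) and Ace, the angiotensin-converting enzyme, one of -0.27 (SE 0.08, adjusted p = 0.00914). Stim1, Srebf1, Vegfa, Ctbp1, Add1, Npr1, Atp2b1 and Zbtb16 were not called on the average, with averaged differences between -0.04 and 0.11. Within single tissues, Stim1 was called lower in the left ventricle (difference -0.31, limma adjusted p = 0.00264). Add1 (0.21, adjusted p = 0.00113) and Atp2b1 (0.34, adjusted p = 0.00291) were called higher in the adrenal gland. The rest of these genes were called within no tissue. Bdkrb2, the bradykinin B2 receptor that lowers vascular tone, was the shared member of the list for blood pressure hormones (2 of 14 tested higher, 6 lower). Bdkrb2 in the ganglion was listed at 6.78, 6.39, 6.23 and 6.11 FPKM in the SHR libraries and at 3.54, 3.03, 2.48 and 2.52 FPKM in the WKY libraries. Bdkrb2 was higher in each SHR library, here and in the other 2 tissues, which in the left ventricle was fixed by the filter. The averaged difference of Bdkrb2 was 0.91 (SE 0.08, adjusted p = 3.98e-09).

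Interferon-response genes, induced by type I and type II interferons in antiviral defence, were lower in SHR on average: 2 of 42 tested genes were called higher and 31 lower, with a median of -0.50. The median was -0.87 in the left ventricle, -0.72 in the adrenal gland and -0.04 in the ganglion. Of the 42, 4 were shared (9.52%, against 1.96% of all tested genes), Ifit1 upward and Ifit2, Herc6 and Psmb10 downward. Ifi44l, an interferon-induced gene that the list did not hold, was among the 12 lower genes with the largest averaged difference. Ifi44l in the left ventricle was listed at 2.49, 4.55, 3.52 and 2.12 FPKM in the SHR libraries and at 20.4, 16.2, 20.6 and 16.6 FPKM in the WKY libraries. Ifi44l in the adrenal gland stood at 3.03, 4.98, 3.84 and 3.13 FPKM in the SHR libraries and at 24.5, 22.4, 26.7 and 26.9 FPKM in the WKY libraries. Ifi44l in the ganglion measured 0.46, 0.26, 0.59 and 0.36 FPKM in the SHR libraries and 5.57, 3.96, 3.63 and 5.34 FPKM in the WKY libraries. Ifi44l was lower in every SHR library, which in the ganglion was fixed by the filter, with an averaged difference of -2.23 (SE 0.09, adjusted p = 5.87e-15). Ifit1, which binds viral RNA lacking host cap methylation, went the other way. Ifit1 in the left ventricle was listed at 7.81, 32.5, 10.4 and 6.67 FPKM in the SHR libraries and at 0.08, 0.08, 0.04 and 0 FPKM in the WKY libraries. Ifit1 in the adrenal gland stood at 7.43, 24.1, 10.4 and 6.75 FPKM in the SHR libraries and at 0.03, 0, 0.03 and 0.03 FPKM in the WKY libraries. WKY was at or near 0 throughout (0 in all 4 ganglion libraries, no fold given, adjusted p = 4.37e-10), and SHR number 2 was the highest library in both tissues shown. Herc6, an interferon-induced ubiquitin ligase, measured 7.20, 17.1, 7.80 and 5.72 FPKM in SHR left ventricle against 31.2, 25.1, 29.7 and 19.8 FPKM in WKY, with number 2 nearest to WKY among the SHR libraries. The mean of the list in log2(FPKM + 1) was 4.50 in SHR number 2 and 3.53 to 3.75 in the other SHR left ventricle libraries, against 4.51 to 4.82 in WKY. In the adrenal gland it was 4.85 in SHR number 2 and 3.86 to 3.94 in the others, against 4.67 to 5.01 in WKY. In the ganglion SHR number 2 was at 3.30 and lay within the other libraries. MGC108823 and RT1-T24-1 in the left ventricle had the same library nearest to WKY: MGC108823 was at 12.6 FPKM while the rest of SHR ran from 3.76 to 5.66 FPKM, and RT1-T24-1 was at 23.9 FPKM while the rest ran from 7.76 to 13.0 FPKM. Without SHR number 2 in all 3 tissues, 35 of the 42 genes were called lower.

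The promoters of Ifi44l (chr2:243328473-243328772, plus strand) and of Psmb10, an immunoproteasome subunit (chr19:50743243-50743542, minus strand), from RefSeq GRCr8, are shown because each held 2 matches, in capitals, to GAAANNGAAA, the letters of the interferon-stimulated response element, searched on both strands.
Ifi44l: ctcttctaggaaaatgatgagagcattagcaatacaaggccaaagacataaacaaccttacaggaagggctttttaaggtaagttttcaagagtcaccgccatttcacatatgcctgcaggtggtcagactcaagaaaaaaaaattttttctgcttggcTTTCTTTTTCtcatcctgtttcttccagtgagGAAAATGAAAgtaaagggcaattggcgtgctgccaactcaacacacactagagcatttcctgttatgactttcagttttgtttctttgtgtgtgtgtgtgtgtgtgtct
Psmb10: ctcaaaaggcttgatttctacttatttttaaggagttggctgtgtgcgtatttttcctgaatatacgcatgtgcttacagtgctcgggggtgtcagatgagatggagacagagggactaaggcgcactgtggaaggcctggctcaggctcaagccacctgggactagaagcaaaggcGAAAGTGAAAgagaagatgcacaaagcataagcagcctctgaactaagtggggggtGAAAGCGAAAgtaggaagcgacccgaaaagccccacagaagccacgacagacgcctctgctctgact
Such a match occurred in 3.77% of the 27457 promoters, in 3.03% of those of tested genes, in 8 of 93 (8.6%) for shared genes lower in SHR and in 1 of 78 (1.28%) for those higher. Psmb10 ran at 38.2 to 56.8 FPKM in SHR against 63.8 to 89.6 FPKM in WKY in the adrenal gland, with an averaged difference of -0.41 (SE 0.06, adjusted p = 3.21e-05). MGC108823, named Ifgga2l1 in RefSeq and also holding the letters in its promoter, was lower, with an averaged difference of -2.01 (SE 0.17, adjusted p = 9.38e-09).

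Genes of mitochondrial energy production were lower by small amounts. Of 73 tested genes of oxidative phosphorylation, 1 was called higher (Ndufa10l1) and 49 lower, with a median of -0.12. The medians were -0.10 in the left ventricle, -0.22 in the adrenal gland and -0.03 in the ganglion. Without the adrenal gland 15 were called lower, beside 1217 of all 10902 tested genes. The mean log2(FPKM + 1) of the list overlapped between strains in each tissue, at 9.03 to 9.08 in SHR and 9.04 to 9.12 in WKY left ventricle, 7.02 to 7.15 and 7.11 to 7.32 in the adrenal gland, and 6.86 to 6.95 and 6.87 to 6.91 in the ganglion. Ndufb8, a complex I subunit, was the shared gene besides the Ndufa10 pair. Ndufb8 in the left ventricle was listed at 779, 795, 721 and 723 FPKM in the SHR libraries and at 897, 905, 976 and 899 FPKM in the WKY libraries. Ndufb8 in the adrenal gland was listed at 122, 124, 116 and 125 FPKM in the SHR libraries and at 175, 193, 194 and 197 FPKM in the WKY libraries. Ndufb8 was lower throughout, with an averaged difference of -0.38 (SE 0.03, adjusted p = 9.97e-11). Of 74 mitochondrial ribosome genes, 5 were called higher and 20 lower, with a median of -0.06. That is 33.8% called, no more than the 37.7% of all tested genes. The shared ones were Mrpl4 and Mrpl48, proteins of the large subunit. Mrpl4 in the left ventricle was listed at 39.2, 39.4, 39.4 and 42.8 FPKM in the SHR libraries and at 71.8, 76.8, 72.8 and 83.7 FPKM in the WKY libraries. Mrpl4 in the adrenal gland stood at 17.3, 17.9, 14.3 and 16.3 FPKM in the SHR libraries and at 45.3, 49.6, 50.6 and 51.1 FPKM in the WKY libraries. Mrpl4 in the ganglion measured 13.5, 12.5, 12.6 and 11.7 FPKM in the SHR libraries and 19.2, 18.6, 19.0 and 20.2 FPKM in the WKY libraries. Mrpl4 was apart in every tissue, with an averaged difference of -1.01 (SE 0.04, adjusted p = 5.64e-16). Mrpl48 had one of -0.56 (SE 0.03, adjusted p = 1.23e-13).

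Cytoplasmic ribosome genes were lower on average mostly through the adrenal gland. Of 76 cytoplasmic ribosome genes, 48 were called lower and none higher, with a median of -0.12. The within-tissue medians were -0.33 in the adrenal gland, -0.01 in the left ventricle and -0.04 in the ganglion, and no member was shared. Rpl4, a large-subunit protein, was at 506 ± 17.9 FPKM in SHR adrenal gland and 696 ± 27.3 FPKM in WKY (SD, n = 4), and differed by -0.10 in the left ventricle. Without the adrenal gland, 3 ribosomal genes were called lower, beside 1217 of all 10902 tested genes. Of 38 proteasome genes, 19 were called lower and none higher, with medians of -0.08 in the left ventricle, -0.13 in the adrenal gland and -0.06 in the ganglion. The shared member of this list, Psmd9, an assembly chaperone of the proteasome, had an averaged difference of -0.19 (SE 0.03, adjusted p = 1.84e-05); Psmb10, the shared immunoproteasome subunit, stood in the interferon list. Immediate early genes, transcribed within minutes of a stimulus, went up: 23 of 32 were called higher and 1 lower, with medians of 0.59 in the left ventricle, 1.37 in the adrenal gland and 0.07 in the ganglion. Without the adrenal gland 13 were called higher, beside 1220 of all 10902 tested genes. The mean log2(FPKM + 1) of the list in the adrenal gland was 4.58 in SHR number 3 and 5.11 to 5.35 in the remaining SHR libraries. Ier3, an early response gene tied to cell survival, and Socs3, a feedback inhibitor of cytokine signalling, were the shared members. Ier3 in the adrenal gland was listed at 126, 113, 67.5 and 96.7 FPKM in the SHR libraries and at 23.2, 29.8, 25.2 and 26.9 FPKM in the WKY libraries. Ier3 in the left ventricle stood at 15.7, 15.4, 14.4 and 11.7 FPKM in the SHR libraries and at 7.33, 8.89, 10.5 and 5.52 FPKM in the WKY libraries. Ier3 in the ganglion measured 8.72, 9.05, 7.60 and 8.17 FPKM in the SHR libraries and 5.81, 5.42, 5.61 and 6.69 FPKM in the WKY libraries. Ier3 lay higher in each SHR library, with an averaged difference of 1.03 (SE 0.09, adjusted p = 1.95e-08). Hspb1, a small heat shock protein, was the shared member of the unfolded protein response and chaperone list (11 of 30 higher, 1 lower, with medians of 0.25 in the left ventricle, -0.05 in the adrenal gland and 0.11 in the ganglion). Hspb1 in the left ventricle was listed at 900.2, 323, 1276 and 673 FPKM in the SHR libraries and at 176, 220.2, 202 and 174 FPKM in the WKY libraries. SHR was higher throughout but varied widely, with an averaged difference of 1.18 (SE 0.22, adjusted p = 0.000333).

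Glycolysis (5 of 26 higher, 8 lower), cholesterol synthesis and uptake (8 of 31 higher, 2 lower), the circadian clock (6 of 18 higher, 3 lower) and matrix and fibrosis genes (9 of 45 higher, 18 lower) had no shared member on these lists. Shared matrix genes outside the list, chosen after their values were seen, were Col5a3 (averaged difference -0.90, SE 0.07, adjusted p = 3.63e-09), a fibrillar collagen, Fbln5 (-0.74, SE 0.08, adjusted p = 5.57e-07), an elastic fibre protein, Col4a3 (-0.56, SE 0.09, adjusted p = 2.41e-05), a basement membrane collagen, and Plod2 (1.04, SE 0.06, adjusted p = 2.05e-12), a collagen lysyl hydroxylase. Dnajb9, an endoplasmic reticulum chaperone, had an averaged difference of 0.39 (SE 0.07, adjusted p = 0.000123), Arntl, a core clock activator, one of -1.04 (SE 0.17, adjusted p = 8.72e-05), and Col4a2, a basement membrane collagen, one of -0.47 (SE 0.05, adjusted p = 7.68e-08). Cell type markers were read against the 37.7% of all tested genes that were called. Of 15 endothelial markers, 11 were called lower and none higher (73.3% called), and their mean log2(FPKM + 1) was 3.23 to 3.76 in SHR adrenal gland against 4.01 to 4.10 in WKY, while the strains overlapped in the left ventricle (5.96 to 6.21 and 5.98 to 6.34) and the ganglion (2.72 to 3.13 and 2.74 to 3.28). Tek, an endothelial receptor kinase, had a difference of -1.02 in the adrenal gland. Smooth muscle and pericyte markers (1 of 11 higher, 2 lower, 27.3% called) and Schwann and glial markers (1 of 9 higher, 2 lower, 33.3% called) were near or below that share. These lists, adipocyte markers (1 of 4 higher, 1 lower), adrenal cortex markers (1 of 5 higher, 1 lower), chromaffin and neuron markers (none of 6 higher, 3 lower), cell cycle genes (1 of 6 higher, 1 lower), cardiomyocyte markers (none of 6 higher, 5 lower) and the 1 erythroid marker tested, which was lower, had 1 shared gene among them. It was Tnnt2, cardiac troponin T, which outside the heart was listed at no more than 4.86 FPKM. The part of cell composition in the averaged differences was not tested.

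**Figure D5:**
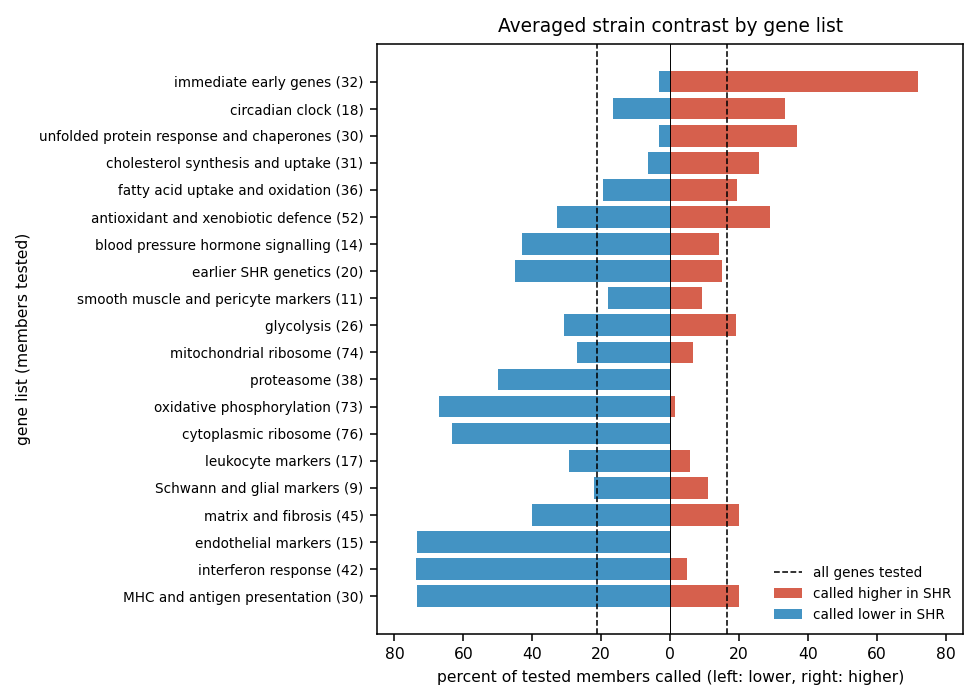
Bars give the percent of tested members of each gene list called higher (red, right) and lower (blue, left) in SHR in the averaged contrast, with the number tested in parentheses; lists with fewer than 9 tested members are left out. Dashed lines mark the 16.4% and 21.3% of all tested genes, and the immediate early, interferon and antigen presentation lists lie furthest beyond them together with the endothelial, ribosomal and oxidative phosphorylation lists.

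The average hid reversals between tissues. Of the 10902 tested genes, 4583 had an interaction call at any mean FPKM. Among those with a mean of at least 5 FPKM, 551 had called differences of opposite sign in 2 tissues. Penk, the precursor of enkephalin peptides, was one of the 4 with the largest range. Penk in the left ventricle was listed at 214, 213, 261 and 119 FPKM in the SHR libraries and at 78.7, 81.7, 94.8 and 76.7 FPKM in the WKY libraries. Penk in the ganglion was listed at 52.8, 38.7, 29.2 and 37.2 FPKM in the SHR libraries and at 255, 365, 310.0 and 262 FPKM in the WKY libraries. Penk in the adrenal gland stood at 1.86, 2.61, 1.60 and 2.56 FPKM in the SHR libraries and at 16.6, 16.5, 11.4 and 19.9 FPKM in the WKY libraries. Penk was thus higher in SHR heart and lower in both other tissues without overlap, with differences of 1.22 in the ventricle, -2.43 in the adrenal gland and -2.90 in the ganglion, and the average was -1.37 (SE 0.12, adjusted p = 3.26e-08). Me1, the cytosolic malic enzyme that supplies NADPH, was at 22.3 ± 3.65 FPKM in SHR adrenal gland against 354 ± 36.1 FPKM in WKY, a difference of -3.94, and was higher in the left ventricle by 0.36. Stard4, a cholesterol carrier, was at 72.3 ± 8.52 FPKM against 10.3 ± 3.22 FPKM in the adrenal gland, a difference of 2.74, and was lower in the left ventricle, with -0.62. Postn, a matrix protein of fibrotic tissue, was at 29.5 ± 9.64 FPKM in SHR left ventricle against 4.51 ± 1.64 FPKM in WKY (all SD, n = 4), with a difference of 2.45. In the adrenal gland Postn had a difference of -1.04 at low, overlapping values, 0.42 to 1.34 FPKM in SHR against 1.08 to 3.39 FPKM in WKY. Its average was not called, at 0.24 (SE 0.14, adjusted p = 0.188), and was -0.07 with 0.1 added before the log. Eno1, enolase of glycolysis, rose in the heart by 1.54 and was lower in the adrenal gland, with -0.32.

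By position, 24 of the 209 shared genes placed in the RefSeq gene order (11.5%) had a shared gene as the next tested gene, against 398 of 10556 tested genes (3.77%). They formed 10 runs, 3 of them of 3 or more genes, and in 5 of the 10 every member went in 1 direction. Besides the runs on chromosomes 11 and 20, Pex7 and Map3k5 on chromosome 1 and Bdkrb2 and Gskip on chromosome 6 were higher together, and Igsf7 and RGD1559482 on chromosome 10 were lower together. Other runs mixed directions, such as Ifi44l, lower, beside Gipc2, higher, on chromosome 2. The X chromosome held 1 shared gene among 298 tested (0.336%). Among the largest differences, 3 genes have no name in the reference used here: RGD1562378 (1.93, SE 0.07, adjusted p = 2.29e-16) and LOC102546968 (1.65, SE 0.09, adjusted p = 3.52e-12) were higher, and LOC100364500 (-1.51, SE 0.06, adjusted p = 1.36e-14) was lower. RGD1566265, named Chmp1b2 in RefSeq, was lower, with an averaged difference of -1.61 (SE 0.05, adjusted p = 6.18e-17), with its largest difference, -2.78, in the ganglion.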

How the data were processed

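Libraries of total RNA were prepared with a KAPA RNA HyperPrep kit and sequenced on a BGISEQ-500, per the labels' protocols. The submitters' processing notes name the Rnor_6.0 genome build, Bowtie2, RSEM 1.3.1 and DESeq2 1.4.5 with no role or order; the annotation is not given in the sources used here. The authors deposited 1 table of FPKM per gene and library for the series, with their own q-values and log2 fold changes per tissue, per the file headers. It held 22864 genes, of which 2358 were blank in every library, and 27 symbols that had become dates were restored. FPKM values carry no read depth, so low values have unknown counting error.

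From the FPKM values, log2(FPKM + 1) was computed; the added 1 understates changes of low genes. Genes needed 1 FPKM in 4 of the 8 libraries of each tissue. limma 3.58.1 (R 4.3.3, trend and robust) fitted 6 group means to all 24 libraries, and the averaged, within-tissue and interaction contrasts were tested 2-sided with Benjamini-Hochberg adjustment over all genes tested, at a threshold of 0.05. The scripts were tested on simulated data. Libraries were grouped by the tissue and strain in their titles. Named genes were the 12 higher and 12 lower shared genes with the largest averaged difference and a mean of at least 5 FPKM. All tested genes of the earlier SHR genetics list and the called member with the smallest adjusted p of each other list were also named. So were the 4 shared genes with the largest range among tissues and members of runs of 3 or more. The last were the 4 with the largest range among genes with an interaction call that were called in opposite directions. Shared members of lists, copy pairs and Cbr1 were added after their values were seen. The members and the 26 gene lists were chosen with earlier results of these data known. Neighbours were taken from the RefSeq gene order of GRCr8, another build than that of the files, and promoters from RefSeq GRCr8. Alternatives changed the added value, the filter, the scaling, the limma settings, a replicate block, and the libraries and tissues used.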

Additional observations from a re-analysis of the deposited data

Results flagged for a closer look

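In 23 of 438 groups of 4 libraries of the named genes, 1 library lay far from the other 3, judged by its gap to the nearest library as a share of the range of the group; chance gives this in about 5% of groups. The share was 1 for Ndufa10l1 in the ganglion (WKY number 1 high), for Setd4 in the adrenal gland (WKY number 3 high) and in the ganglion (WKY number 1 high), and for Ifit1 in the adrenal gland (WKY number 2 low), all at values below 1 FPKM. It was 0.887 for Ephx2 in the adrenal gland (WKY number 3 high), 0.912 for RGD1562378 in the ganglion (SHR number 1 low) and 0.958 for LOC102546968 in the ganglion (SHR number 3 high). It was 0.898 for Cbr3 in the left ventricle (SHR number 2 low) and 0.862 for RT1-S2 in the adrenal gland (SHR number 2 high). For Diablo it was 0.845 in the left ventricle (WKY number 4 high) and 0.833 in the ganglion (SHR number 1 high), and for LOC100365043 it was 0.834 in the adrenal gland (SHR number 2 low). In the left ventricle it was 0.95 for Mrpl4 (SHR number 4 high), 0.846 for Rpl4 (SHR number 1 high), 0.889 for Cd14 (SHR number 1 high), 0.846 for Pdgfrb (SHR number 3 high) and 0.848 for Vegfa (WKY number 4 low). In the adrenal gland it was 0.864 for Postn (SHR number 4 high), 0.868 for Rarres2 (WKY number 1 low) and 0.831 for Eno1 (SHR number 3 low). In the ganglion it was 0.842 for Vegfa (WKY number 2 low), 0.879 for Rarres2 (SHR number 3 low) and 0.853 for Myh6 (SHR number 1 high).

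For 56 of the 73 named genes the SHR minus WKY difference itself varied among the 3 tissues (limma F test of the interaction, Benjamini-Hochberg adjusted p in parentheses). That share was above the 42% of all tested genes with such a call. Some named genes were picked for a large range among tissues or from genes with an interaction call, so the count is partly built in. Among the named shared genes, those higher in SHR included LOC102556347 (1.03e-15), Ndufa10l1 (6.48e-05), LOC100360940 (2.56e-07), Setd4 (1.74e-13), Ephx2 (4.82e-05), RGD1562378 (8.37e-09), RT1-A1 (4.38e-05), RT1-CE4 (9.54e-08), LOC102546968 (1.34e-08), Map3k5 (0.0149), Cbr3 (4.26e-07) and RT1-S2 (0.0335). Those lower in SHR included Cd36 (1.07e-08), RT1-N2 (5.22e-07), MGC108823 (0.00861), RT1-Bb (0.00596), RGD1565622 (1.75e-12), RGD1566265 (3.62e-10), Retsat (0.000278), RT1-CE10 (0.0355), RT1-Ba (0.00617), LOC100364500 (0.00124), RGD1562652 (0.00267), RT1-CE5 (0.0124), Diablo (0.00682) and Hist1h2bk (8.98e-05). From the earlier SHR genetics list, besides genes already given, the differences varied for Endog (0.000251), Stim1 (0.00168), Gstm1 (0.0316), Gja1 (0.00535), Add1 (0.0186), Agtr1a (1.99e-08), Atp2b1 (0.0256), Rarres2 (0.000248), Tmem70 (1.97e-05) and Hsd11b1 (2.14e-08). Among genes called in opposite directions in 2 tissues they varied for Me1 (1.12e-17), Penk (4.04e-09), Postn (1.81e-07) and Stard4 (6.41e-10), but an interaction call was required to pick these genes. From the other lists they varied for Mrpl4 (1.36e-07), Eno1 (1.58e-15), Ier3 (0.000108), Dnajb9 (0.0143), Psmb2 (0.0203), Rpl4 (8.86e-05), Col4a2 (0.0133), Cd14 (0.000877), Tek (0.000309), Pdgfrb (0.016), Ncam1 (4.87e-07), Cidea (2.07e-07), Hbb (0.0129), Myh6 (0.00167), Fdx1 (5.49e-06) and Mcm2 (0.000272).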

How the results depend on the processing

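All 214 shared genes were still called under every alternative that tested them. At a filter of 5 FPKM 138 were tested, and 191 when both strains had to pass the filter, an alternative chosen after seeing the data. The genes were picked from these same libraries for a call and no overlap, so this is no independent check. Groups without overlap were kept by 192 when libraries were scaled by median of ratios and by 189 under quantile normalization. These 2 scalings moved the share of calls that were higher from 43.5% to 50.2% and 49.3%. Counts that moved by over 1.5 times included the genes called lower. They were 3496 of 20384 tested with no filter, 1530 of 6946 at 5 FPKM and 1217 of 10902 without the adrenal gland. The interaction calls, 3004 of 6946 at 5 FPKM, moved as well. The 2 filters changed the number of genes tested, so these counts moved with it. At 5 FPKM the shared genes lower in SHR numbered 68, interferon genes called lower 20 and immediate early genes called higher 13, among the fewer genes tested there. Without the adrenal gland, 13 immediate early genes were called higher, and 15 oxidative phosphorylation and 3 cytoplasmic ribosome genes lower. Averages turned without the left ventricle for Postn (-0.86), Eno1 (-0.13), Ncam1 (-0.052) and Cidea (0.17), and without the adrenal gland for Me1 (0.26), Stard4 (-0.20), Gja1 (-0.051), Agtr1a (0.19) and Rarres2 (0.084). The averaged difference moved by over 1.5 times in 11 of 73 named genes with 0.1 added before the log and in 28 with 5 added, with values of 3.01 and 1.36 for Ephx2, 6.58 and 3.04 for Ndufa10l1, 5.53 and 2.09 for LOC100360940, and -3.32 and -2.59 for Cd36. Leaving out 1 library at a time, or 1 SHR number in all tissues, gave ranges of 1626 to 1837 for genes called higher, 2089 to 2423 for called lower, 4166 to 4736 for interaction calls, 104 to 143 for shared genes higher, 113 to 152 for shared genes lower, 29 to 35 for interferon response genes called lower, 21 to 23 for MHC and antigen presentation genes called lower, 23 to 25 for immediate early genes called higher, 39 to 56 for oxidative phosphorylation genes called lower, 38 to 54 for cytoplasmic ribosome genes called lower and 16 to 26 for proteasome genes called lower. With all libraries the shared genes numbered 102 higher and 112 lower. Groups without overlap stay so when a library is removed, so these 2 counts could fall only through a lost averaged call. Their ranges are therefore no check of the shared signature. Gja1 lost its call without any of 16 of the 24 libraries, and Ctbp1, Add1 and Atp2b1 gained one in 6, 3 and 2 of them.

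The replicate numbers were not taken to pair libraries: the correlation of same-numbered libraries of a strain across tissues ran from -0.19 to 0.25, and was over 0.1 in 5 of 24 pairs. The highest was that of SHR number 2 in left ventricle and adrenal gland, the pair that stood apart on interferon-response genes. Same-numbered SHR and WKY libraries of 1 tissue, which cannot share a rat, ran from -0.10 to 0.27. Whether any same-numbered libraries came from 1 rat was not tested. With strain and number as a random replicate block, 1781 genes were called higher and 2318 lower, with number as a fixed term 1778 and 2302, and on averages over tissues 1546 and 2041. Unknown read depth limits the low genes most.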
